A study of Mus musculus with 12 samples.

Results

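Macrophages and other leukocytes of the mouse testis were followed through 35 genes in RNA of whole testes. The list was put together by role and holds 4 genes of MHC class II, the 3 chains of complement C1q, 11 tissue macrophage genes, 3 Fc receptors, 5 lysosomal and phagocyte effectors and 9 genes of leukocytes or monocytes in general. A gene was measured if a probe carrying its symbol was detected on at least 3 of the 12 arrays, and its brightest such probe stood for it. By that rule 22 of the 35 genes were measured, among 11076 genes tested.

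The RNA came from mice aged 10 days, and the study addressed the retinoblastoma gene Rb1 in Sertoli cells, the somatic cells that nurse the germ cells. Cre recombinase was driven by the Amh promoter, which is active in Sertoli cells, and recombined floxed Rb alleles, so that by design leukocytes were not the cells in which Rb1 was deleted. The 3 groups were wild type (WT, 5 arrays, numbered 8 to 12), SC-Rb+/- (HET, 3 arrays, 5 to 7) and SC-RbKO (KO, 4 arrays, 1 to 4). The labels do not say whether the wild type mice carried Cre or floxed alleles, nor whether each RNA came from a different mouse, and p-values accordingly reflect only how much these samples vary. The numbers are names and pair no arrays across groups.

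Macrophages are the main leukocytes of the testis, where they lie in the interstitium between the tubules and around the Leydig cells. They depend on signals through the receptor Csf1r, clear dying cells and debris, and make C1q, the recognition molecule of the classical complement pathway. MHC class II molecules present peptides to CD4+ T cells and are carried by some but not all testicular macrophages, and the invariant chain Cd74 guides them to the compartment where peptides are loaded.

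All levels below are log2 normalized intensities of 1 probe per gene, and differences are on the same log2 scale. Levels of different probes were not set against each other. Each array detected 39.3 to 43.7 percent of its 45281 probes. Markers of Sertoli cells (Sox9, Amh), germ cells (Ddx4, Dazl), Leydig cells (Insl3, Cyp17a1), myoid cells (Acta2, Myh11), endothelium (Pecam1, Cdh5) and red cells (Hba-a1) were each detected on 12 of 12 arrays. Rb1 was measured by 2 probes, whose position relative to the deleted part was not analysed here. They read 9.07 and 7.80 in WT, 9.04 and 7.38 in HET and 8.82 and 7.33 in KO. The spread of a whole array about the median array, as an SD over genes, was 0.44 on HET 6, 0.37 on HET 7 and 0.30 on WT 12. The unnormalized table names its columns with numbers, and the sources used here do not give their meaning. The lower 6 of them belong to WT 8, WT 9, HET 5, HET 6, KO 1 and KO 2 and the upper 6 to WT 10, WT 11, WT 12, HET 7, KO 3 and KO 4. This split at the middle rank was chosen here and follows no gap in the numbers.

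Of the 35 genes, 20 were detected on all 12 arrays. Lcp1 (L-plastin, an actin bundler of leukocytes) was detected on 11, and Adgre1, which encodes the macrophage marker F4/80, on 5, namely 1 WT, 2 HET and 2 KO arrays. A further 12 genes had a probe that did not reach 3 arrays. Among them, 8 were detected on 0 arrays: H2-Aa, the scavenger receptor Cd163, Cybb of the phagocyte oxidase, Ptprc (CD45, with 4 probes), Spi1 (the transcription factor PU.1), the integrin chain Itgam, the chemokine receptor Ccr2 and the tetraspanin Cd53. The other 4 were H2-Eb1 on 2 arrays, the scavenger receptor Msr1 on 1, the high-affinity receptor Fcgr1 on 1 and the protease Ctss (cathepsin S) on 2, both HET. No probe carried the symbol Cd68 in the table used here. The measured share was 2 of 4 for MHC class II, 3 of 3 for C1q, 8 of 11 for tissue macrophages, 2 of 3 for Fc receptors, 3 of 5 for lysosomal and phagocyte effectors and 4 of 9 for pan-leukocyte and monocyte genes. A probe that was not well above background gives no level, so nothing follows here about genotype differences in these 13 genes. H2-Eb1 is described below by array only.

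Promoter sequence is shown for 5 measured members, chosen for their roles in the results below: a pair of C1q genes, the mannose receptor gene Mrc1, Aif1 and Fcgr3. The sequences are from RefSeq, build GRCm38.p6, and each is the 250 bases before the gene's start, 5′ to 3′ on the gene's own strand. Capitals mark every match to GAGGAA, a core of sites bound by PU.1, the factor that macrophage genes commonly share, or to its other strand, TTCCTC.
C1qb, chr4:136886201-136886450, minus strand: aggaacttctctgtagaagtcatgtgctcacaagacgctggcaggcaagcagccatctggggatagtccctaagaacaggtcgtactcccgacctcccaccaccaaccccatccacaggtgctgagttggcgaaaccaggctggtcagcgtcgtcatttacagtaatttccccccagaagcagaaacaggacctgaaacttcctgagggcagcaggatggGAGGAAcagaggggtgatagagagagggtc
C1qc, chr4:136892915-136893164, minus strand: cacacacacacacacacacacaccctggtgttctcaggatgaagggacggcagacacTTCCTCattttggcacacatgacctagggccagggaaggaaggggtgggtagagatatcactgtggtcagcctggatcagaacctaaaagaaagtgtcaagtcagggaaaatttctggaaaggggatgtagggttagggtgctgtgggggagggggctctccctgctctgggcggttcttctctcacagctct
Mrc1, chr2:14229164-14229413, plus strand: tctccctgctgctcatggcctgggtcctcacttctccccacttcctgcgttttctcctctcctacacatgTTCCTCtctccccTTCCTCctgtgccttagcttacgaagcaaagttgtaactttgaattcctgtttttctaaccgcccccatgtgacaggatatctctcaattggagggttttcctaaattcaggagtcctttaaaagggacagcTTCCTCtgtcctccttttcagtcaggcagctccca
Aif1, chr17:35176053-35176302, minus strand: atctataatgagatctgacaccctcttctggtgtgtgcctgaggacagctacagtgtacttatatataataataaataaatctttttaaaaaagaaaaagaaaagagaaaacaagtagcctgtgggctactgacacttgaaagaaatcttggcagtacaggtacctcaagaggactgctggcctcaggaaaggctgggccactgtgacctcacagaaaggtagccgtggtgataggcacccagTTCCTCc
Fcgr3, chr1:171059395-171059644, minus strand: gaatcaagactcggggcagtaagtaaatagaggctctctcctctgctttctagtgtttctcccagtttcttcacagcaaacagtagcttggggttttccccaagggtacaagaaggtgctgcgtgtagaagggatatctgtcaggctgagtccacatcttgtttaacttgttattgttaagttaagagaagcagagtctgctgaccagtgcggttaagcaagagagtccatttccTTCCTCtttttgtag
Promoters were given for 14 of the 22 measured members. GAGGAA, on either strand, occurred in 7 of these 14: C1qb, C1qc, Mrc1, Aif1, Trem2, Fcgr3 and Laptm5. It occurred in 25.9 percent of all 27025 genes with a promoter in the same table. Mrc1 held 3 matches, the other printed promoters 1 each. The inverted CCAAT box ATTGG, counted on either strand, occurred in 6 of 14 members (42.9 percent) against 37.5 percent of all genes, and TATAAA in 2 of 14 against 14.3 percent. No motif's letters contain those of another, and a match in so short a word is a description of these letters and not a binding site. Cd74, H2-Ab1, C1qa, Csf1r, Adgre1, Cd14, Tyrobp and Cd52 were not in the table.

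No measured macrophage or leukocyte gene was called different between genotypes. Neither was any other gene tested, so the lack of calls is no result about these members in particular. In limma's test with Benjamini-Hochberg adjustment, 0 of the 22 measured members passed an adjusted p under 0.05 in KO against WT, HET against WT or KO against HET, and 0 percent of all 11076 genes did so in each of the 3 comparisons. At an unadjusted p under 0.05, 1 of 22 passed in KO against WT, where 2.56 percent of all genes did, 4 of 22 in HET against WT, where 9.77 percent did, and 0 of 22 in KO against HET, where 7 percent did. In bulk tissue, fewer cells of a type and less RNA per cell cannot be told apart. The direction of the small differences varied by role. By the brightest probe of each gene, the measured members of MHC class II, C1q and the Fc receptors averaged lower in both mutant groups than in WT. Dimmer probes of H2-Ab1 and Fcgr2b did not all read lower. The tissue macrophage genes were split. Without WT 12, HET 6 and HET 7 the median of the Fc receptors in HET was 0.04, so that it no longer lay below WT. HET 5 is then the only HET array, and its spread is taken from the other groups.

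**Figure D1:**
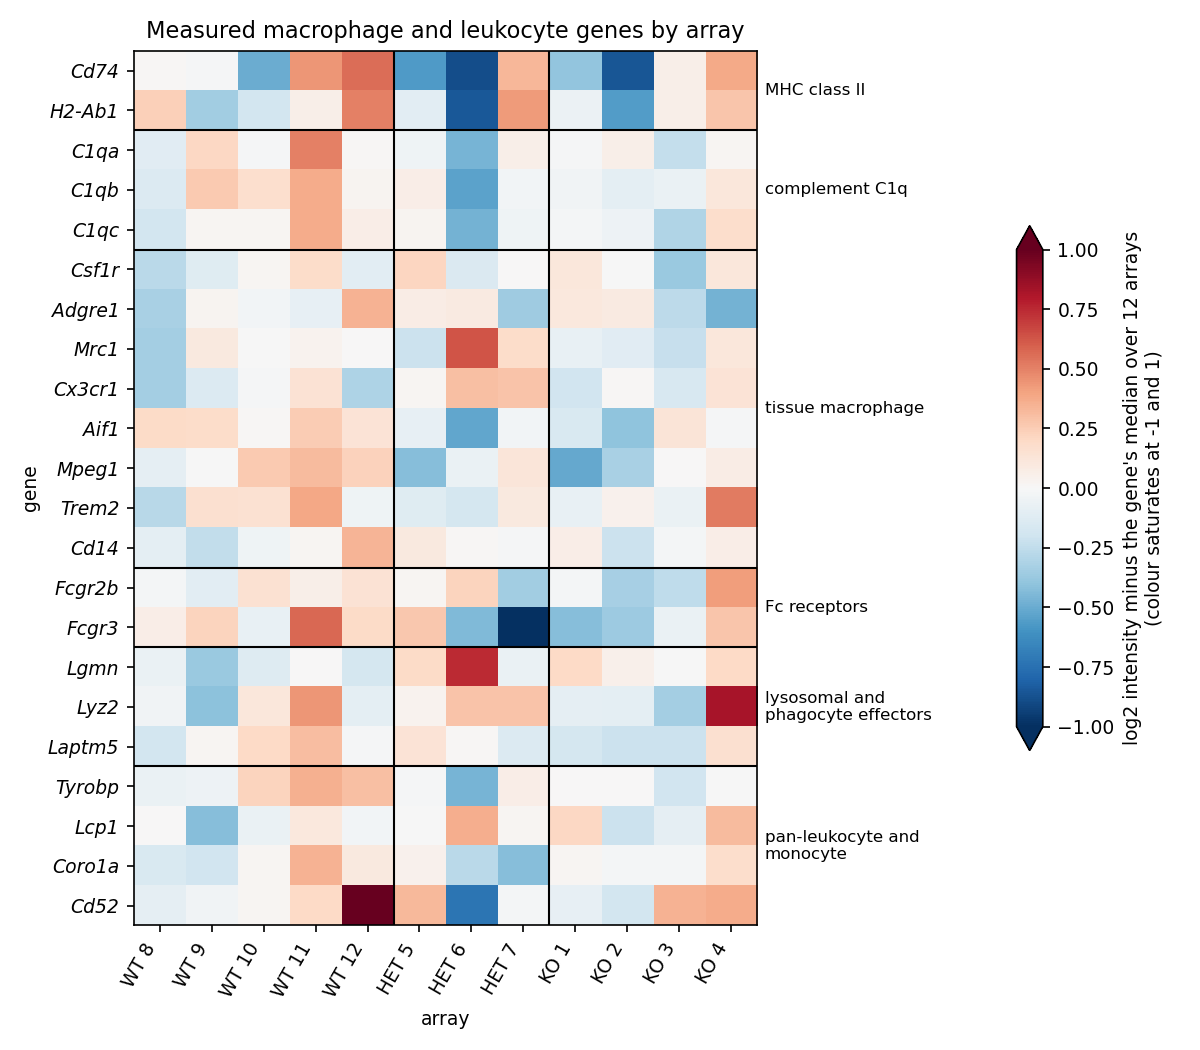
Each square is the log2 intensity of a measured gene on an array (columns, by genotype) minus that gene's median over the 12 arrays, from blue (lower) to red (higher), with genes grouped by role. HET 6 is blue for both MHC class II genes, the 3 C1q genes and Aif1 and red for Mrc1 and Lgmn, and WT 12 is red for the MHC class II genes and Cd52.

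Among the MHC class II members, the invariant chain gene Cd74 and H2-Ab1, the beta chain of I-A, were measured. Cd74 read 7.41, 7.39, 6.90, 7.84 and 7.95 on WT 8 to WT 12, 6.83, 6.51 and 7.73 on HET 5 to HET 7, and 7.00, 6.54, 7.46 and 7.77 on KO 1 to KO 4. The groups overlapped: its lowest arrays were HET 6 and KO 2 and its highest WT 12 and WT 11, and each mutant group also held an array at 7.73 or above. Its level was 7.50 ± 0.42 over the 5 WT arrays, 7.02 ± 0.63 over the 3 HET arrays and 7.19 ± 0.54 over the 4 KO arrays (mean ± SD). H2-Ab1 read 6.63, 6.04, 6.21, 6.45 and 6.90 on WT 8 to WT 12, 6.29, 5.55 and 6.82 on HET 5 to HET 7, and 6.34, 5.84, 6.46 and 6.67 on KO 1 to KO 4. It had the same lowest arrays, HET 6 and KO 2, and its highest were WT 12 and HET 7. Cd74 differed by -0.30 (95% interval -0.94 to 0.33) between KO and WT and by -0.47 (95% interval -1.17 to 0.22) between HET and WT (limma, adjusted p = 1 and 0.57). For H2-Ab1 the differences were -0.12 (95% interval -0.66 to 0.41) and -0.23 (95% interval -0.81 to 0.35) (limma, adjusted p = 1 and 0.75). With each array left out in turn the HET difference of Cd74 ran from -0.83 to -0.22. For H2-Ab1 the HET difference was 0.11 without HET 6 and the KO difference 0.04 without KO 2, so that neither kept its sign. Without WT 12, HET 6 and HET 7, Cd74 differed by -0.55 and H2-Ab1 by -0.05 in HET. A second Cd74 probe gave -0.28 and -0.43. The probes of H2-Ab1 disagreed, a dimmer probe giving -0.24 in KO and 0.12 in HET and the other 0.04 and -0.32.

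The MHC class II genes varied more within a genotype than most genes, a trait shared with some other members. The SD within groups was 0.51 for Cd74 and 0.43 for H2-Ab1, at the 97.7th and 96.0th percentile of all genes, whose median was 0.18. It was 0.65 for Cd52, 0.43 for Fcgr3 and 0.37 for Lyz2, at percentiles 98.6, 96.1 and 93.4. The remaining measured members lay between percentiles 41.9 (Cd14) and 78.7 (Adgre1). A pair of arrays stood apart in ways chosen after their values were seen. H2-Eb1, the beta chain of I-E, was detected on WT 12 at 5.74 and on HET 7 at 5.45 and on no other array, where its readings lay between 4.55 and 4.84. A dimmer H2-Ab1 probe also read 6.66 on WT 12 and 6.47 on HET 7 and between 4.95 and 5.40 elsewhere. On these same arrays the mean of 7 measured germ cell markers, relative to WT, was 0.71 and 1.17, against -0.59 to -0.02 on the other 10. Their part in the result was not tested.

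The 3 chains of C1q are encoded by adjacent genes on chromosome 4 and assemble into 1 molecule. C1qa read 6.99, 7.32, 7.09, 7.61 and 7.12 on WT 8 to WT 12, 7.06, 6.64 and 7.16 on HET 5 to HET 7, and 7.10, 7.16, 6.87 and 7.13 on KO 1 to KO 4. C1qb read 8.48, 8.88, 8.78, 8.99 and 8.64 on WT 8 to WT 12, 8.69, 8.09 and 8.60 on HET 5 to HET 7, and 8.58, 8.52, 8.55 and 8.74 on KO 1 to KO 4. C1qc read 8.62, 8.82, 8.82, 9.17 and 8.87 on WT 8 to WT 12, 8.83, 8.33 and 8.75 on HET 5 to HET 7, and 8.78, 8.75, 8.50 and 8.97 on KO 1 to KO 4. For all 3 chains the highest array was WT 11 and the lowest HET 6, and the genotypes overlapped. C1qb came to 8.76 ± 0.20 over the 5 WT arrays, 8.46 ± 0.32 over the 3 HET arrays and 8.60 ± 0.09 over the 4 KO arrays (mean ± SD). The KO minus WT differences were -0.16 (95% interval -0.46 to 0.14) for C1qa, -0.16 (95% interval -0.45 to 0.13) for C1qb and -0.11 (95% interval -0.40 to 0.18) for C1qc, with limma adjusted p = 1 for each. In HET minus WT they were -0.27 (95% interval -0.60 to 0.06), -0.30 (95% interval -0.61 to 0.01) and -0.22 (95% interval -0.54 to 0.10), with limma adjusted p between 0.5 and 0.56. Without WT 12, HET 6 and HET 7 the HET differences were -0.19 for C1qa, -0.10 for C1qb and -0.03 for C1qc.

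C1q and MHC class II differed in spread and in their highest arrays. The C1q genes had an SD within groups of 0.21 to 0.22, at the 63.6th to 67.7th percentile of all genes. Relative to the WT mean, the mean of the C1q genes ran from -0.25 to 0.31 in WT, from -0.59 to -0.09 in HET and from -0.31 to -0.0029 in KO. The mean of the MHC class II genes ran from -0.42 to 0.45, from -0.95 to 0.30 and from -0.78 to 0.25. HET 6 was the lowest array for both, but the highest differed, WT 11 for C1q and WT 12 for MHC class II.

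**Figure D2:**
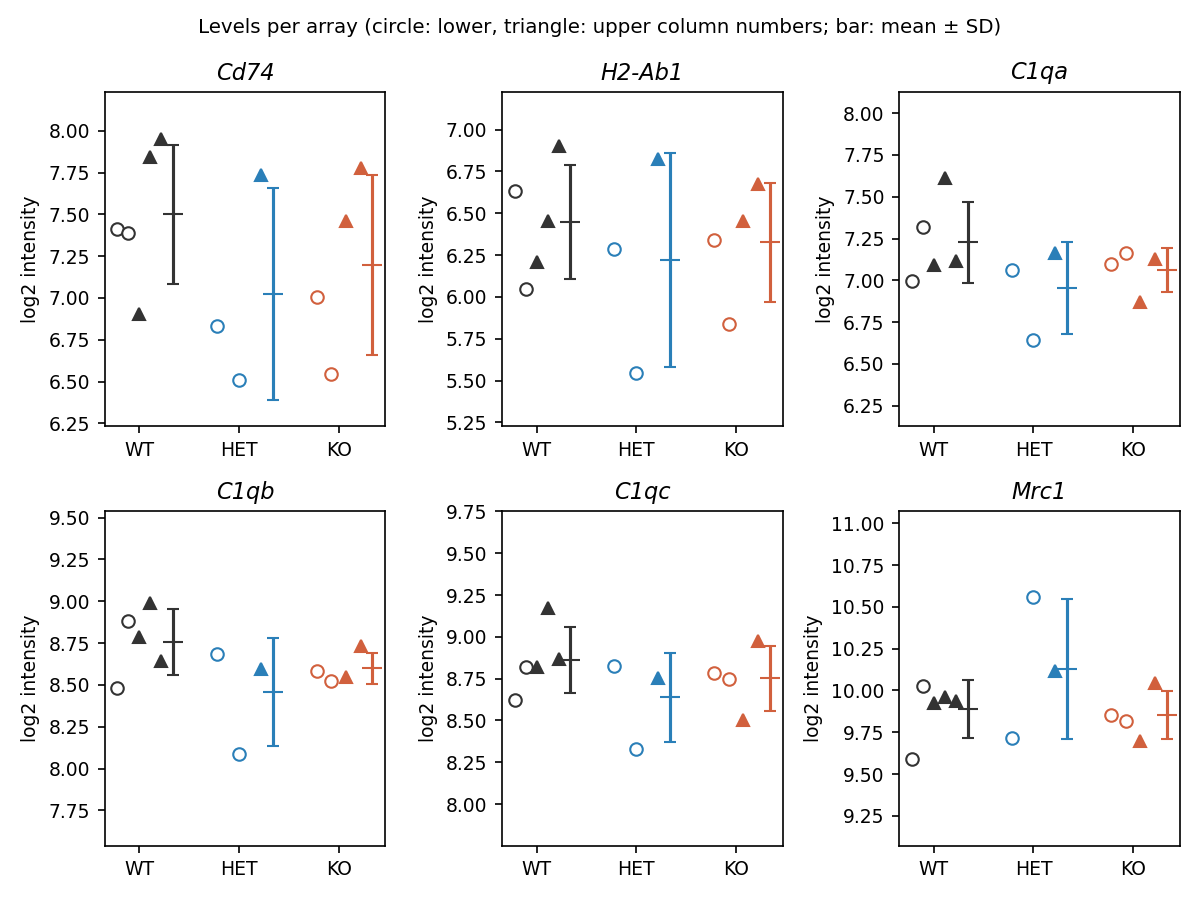
Log2 intensity of Cd74, H2-Ab1, C1qa, C1qb, C1qc and Mrc1 on each array, by genotype (WT black, HET blue, KO orange), with mean ± SD at the right of each group. Open circles are arrays with the lower and filled triangles arrays with the upper column numbers, and each panel has its own axis of equal span. In Cd74 and H2-Ab1 the triangles of HET and KO lie above the circles, while in the C1q genes the symbols mix.

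The tissue macrophage genes read in either direction. Csf1r, the receptor for Csf1 and Il34 on which macrophages depend, read 5.55, 5.70, 5.85, 6.01 and 5.72 on WT 8 to WT 12, 6.04, 5.68 and 5.83 on HET 5 to HET 7, and 5.94, 5.82, 5.45 and 5.94 on KO 1 to KO 4. Its groups overlapped nearly in full, with differences of 0.02 (95% interval -0.25 to 0.29) in KO, or -0.01 with arrays scaled to the same median, and 0.08 (95% interval -0.21 to 0.38) in HET, the latter 0.26 without WT 12, HET 6 and HET 7. A second, dimmer Csf1r probe, detected on 6 arrays, gave -0.18 and 0.30. Adgre1 read 4.79, 5.14, 5.10, 5.04 and 5.47 on WT 8 to WT 12, 5.19, 5.21 and 4.76 on HET 5 to HET 7, and 5.22, 5.21, 4.86 and 4.65 on KO 1 to KO 4. Most of those readings were not above background, and none of the groups stood apart, at -0.12 in KO and -0.05 in HET, or 0.18 in HET without WT 12, HET 6 and HET 7. Mrc1, the mannose receptor of resident macrophages, read 9.59, 10.03, 9.92, 9.96 and 9.94 on WT 8 to WT 12, 9.72, 10.56 and 10.11 on HET 5 to HET 7, and 9.85, 9.82, 9.70 and 10.04 on KO 1 to KO 4. Its highest array was HET 6 and its lowest WT 8, and the differences were -0.04 (95% interval -0.36 to 0.29) in KO and 0.24 (95% interval -0.11 to 0.59) in HET. The HET difference turned to -0.16 without WT 12, HET 6 and HET 7.

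Aif1 encodes IBA1, an actin-binding protein of macrophages, and Cx3cr1 the receptor for fractalkine. Aif1 read 7.06, 7.05, 6.89, 7.13 and 7.01 on WT 8 to WT 12, 6.79, 6.35 and 6.85 on HET 5 to HET 7, and 6.72, 6.47, 7.00 and 6.86 on KO 1 to KO 4. All 3 HET arrays lay below all 5 WT arrays, and 1.66 percent of all genes had their HET arrays below all WT arrays in the same way. By its brightest probe, no other measured member was separated in HET against WT, KO against WT or KO against HET. In these comparisons 2.68, 1.94 and 5.24 percent of all genes were separated in either direction. Aif1 differed by -0.37 (95% interval -0.66 to -0.07) in HET (limma, unadjusted p = 0.018, adjusted p = 0.5) and by -0.27 (95% interval -0.54 to 0.00) in KO (unadjusted p = 0.051, adjusted p = 1). A second Aif1 probe gave -0.24 in HET and -0.35 in KO, but separated other groups. On that probe HET overlapped WT, with HET 5 at 6.54 and WT 8 at 6.31. Its KO arrays, at 6.04 to 6.25, lay below the lowest WT array. With each array left out in turn the HET difference ran from -0.46 to -0.21, and without HET 6 it was the latter. Within the lower and upper column numbers it was -0.49 and -0.16, the latter from HET 7 alone against 3 WT arrays.

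Cx3cr1 read 7.61, 7.82, 7.94, 8.09 and 7.64 on WT 8 to WT 12, 7.98, 8.25 and 8.24 on HET 5 to HET 7, and 7.76, 7.97, 7.79 and 8.09 on KO 1 to KO 4. HET 6 and HET 7 were its highest arrays, and HET 5 lay within the WT range. It differed by 0.33 (95% interval 0.06 to 0.61) in HET (limma, unadjusted p = 0.022, adjusted p = 0.5) and by 0.08 (95% interval -0.17 to 0.34) in KO (adjusted p = 1). Within the lower and upper column numbers the HET difference was 0.40 and 0.35, the latter from HET 7 alone against 3 WT arrays. Without WT 12, HET 6 and HET 7 the HET difference was 0.11. Mpeg1, which encodes the pore-forming protein perforin-2, is singled out after its values were seen, as the member with an unadjusted p under 0.05 in KO. It read 6.53, 6.61, 6.88, 6.94 and 6.85 on WT 8 to WT 12, 6.20, 6.56 and 6.74 on HET 5 to HET 7, and 6.11, 6.29, 6.63 and 6.69 on KO 1 to KO 4. KO 1 and KO 2 were low, while KO 3 and KO 4 lay within the WT range, and the KO difference was -0.33 (95% interval -0.65 to -0.01) (limma, unadjusted p = 0.042, adjusted p = 1). Trem2, a lipid receptor of macrophages, and Cd14, the co-receptor for lipopolysaccharide, differed by 0.03 and -0.02 in KO and by -0.14 and 0.04 in HET. Of the 8 measured tissue macrophage genes, 3 were higher and 5 lower in KO, with a median of -0.03, and 4 were higher and 4 lower in HET, with a median of -0.01. The sign of the HET median turned in 5 of 23 alternative settings.

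Fcgr3 encodes an activating receptor for IgG that signals through the gamma chain Fcer1g, and Fcgr2b the inhibitory receptor. Fcgr3 read 7.34, 7.50, 7.20, 7.85 and 7.47 on WT 8 to WT 12, 7.55, 6.84 and 6.05 on HET 5 to HET 7, and 6.85, 6.92, 7.21 and 7.56 on KO 1 to KO 4. HET 7 was far below the other arrays, and the remaining arrays of the 3 groups overlapped. The difference was -0.34 (95% interval -0.88 to 0.20) in KO (limma, adjusted p = 1) and -0.66 (95% interval -1.25 to -0.08) in HET (unadjusted p = 0.03, adjusted p = 0.5). Without HET 7 the HET difference was -0.28, and without WT 12, HET 6 and HET 7 it was 0.07. Fcgr2b read 7.32, 7.24, 7.50, 7.40 and 7.48 on WT 8 to WT 12, 7.36, 7.57 and 7.00 on HET 5 to HET 7, and 7.32, 7.01, 7.09 and 7.76 on KO 1 to KO 4. Its highest array was KO 4 and its lowest HET 7. Fcgr2b differed by -0.09 in KO and -0.08 in HET, the latter 0.00 without WT 12, HET 6 and HET 7. A dimmer Fcgr2b probe, detected on 5 arrays, 3 of them KO, gave 0.11 in KO and -0.01 in HET.

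The low readings of Fcgr3 fell on particular arrays, a pattern noticed after the values were seen. The probe of Fcer1g was detected on 5 arrays, at 8.52 on WT 10, 7.61 on HET 6, 9.69 on HET 7, 8.28 on KO 1 and 8.14 on KO 2, and read between 4.30 and 4.62, below detection, on the other 7. The same 5 arrays were the 5 lowest for Fcgr3, at 6.05 to 7.20 against 7.21 to 7.85 on the other 7. HET 7 had the highest Fcer1g and the lowest Fcgr3. The gap between the sets of arrays was narrow, 7.20 on WT 10 against 7.21 on KO 3. Fcer1g was detected on 1 of 5 WT, 2 of 3 HET and 2 of 4 KO arrays. Both genes lie on chromosome 1, with 29 genes between them in the GRCm38.p6 table, 7 of them protein-coding. Between Fcgr3 and Fcgr2b lies 1 protein-coding gene, Fcgr4. Whether these positions bear on the readings was not tested.

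**Figure D3:**
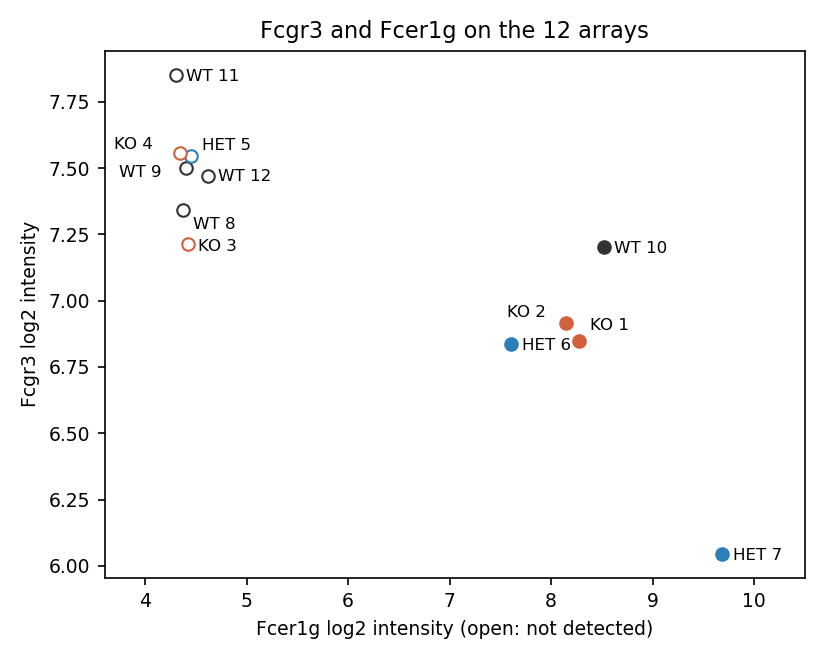
Log2 intensity of Fcgr3 (vertical) against that of Fcer1g (horizontal) on the 12 arrays, WT black, HET blue and KO orange, with open circles where Fcer1g was not detected. The 5 arrays with detected Fcer1g, at 7.61 to 9.69, are the 5 with the lowest Fcgr3.

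Among the lysosomal and phagocyte effectors, Lgmn encodes legumain, a lysosomal asparaginyl endopeptidase, and Laptm5 a lysosomal membrane protein of leukocytes. Lgmn read 11.69, 11.38, 11.63, 11.76 and 11.58 on WT 8 to WT 12, 11.94, 12.50 and 11.69 on HET 5 to HET 7, and 11.95, 11.81, 11.75 and 11.95 on KO 1 to KO 4. All KO arrays but KO 3 lay above the highest WT array, and HET 6 was the highest of the 12. It differed by 0.26 (95% interval -0.05 to 0.56) in KO (limma, unadjusted p = 0.091, adjusted p = 1) and by 0.43 (95% interval 0.10 to 0.77) in HET (unadjusted p = 0.014, adjusted p = 0.5). Without HET 6 the HET difference was 0.21. Within the lower and upper column numbers it was 0.68 and 0.03, the latter from HET 7 alone against 3 WT arrays. Laptm5 read 9.67, 9.87, 10.05, 10.16 and 9.84 on WT 8 to WT 12, 9.99, 9.87 and 9.72 on HET 5 to HET 7, and 9.68, 9.64, 9.64 and 10.02 on KO 1 to KO 4. KO 1, KO 2 and KO 3 sat at the level of the lowest WT array, KO 4 lay within the WT range, and the KO difference was -0.18 (95% interval -0.43 to 0.08) and the HET difference -0.06, or 0.05 without WT 12, HET 6 and HET 7. Lyz2, the lysozyme of macrophages and granulocytes, ranged from 9.23 on WT 9 to 10.46 on KO 4 and differed by 0.07 in KO and 0.20 in HET.

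Of the pan-leukocyte genes, Tyrobp encodes DAP12, an adaptor of activating myeloid receptors, and Coro1a coronin, an actin regulator. Tyrobp read 6.25, 6.27, 6.54, 6.67 and 6.62 on WT 8 to WT 12, 6.31, 5.86 and 6.38 on HET 5 to HET 7, and 6.32, 6.32, 6.13 and 6.32 on KO 1 to KO 4. The KO arrays lay between 6.13 and 6.32, inside or just below the WT range, and HET 6 was the lowest. The differences were -0.20 (95% interval -0.47 to 0.07) in KO and -0.29 (95% interval -0.59 to 0.01) in HET (limma, adjusted p = 1 and 0.5), the latter -0.12 without WT 12, HET 6 and HET 7. Coro1a read 7.77, 7.74, 7.95, 8.27 and 8.02 on WT 8 to WT 12, 7.97, 7.66 and 7.51 on HET 5 to HET 7, and 7.95, 7.91, 7.91 and 8.11 on KO 1 to KO 4. WT 11 was its highest array and HET 7 its lowest, with differences of 0.02 in KO and -0.24 in HET, the latter 0.04 without WT 12, HET 6 and HET 7. Its 3 other probes gave -0.11, 0.41 and -0.04 in HET, so that probes of this gene disagreed in direction. Lcp1 differed by 0.14 in KO and 0.20 in HET.

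Cd52, a small surface glycoprotein of lymphocytes and macrophages, is described for its WT 12 value, which was seen first. It read 6.23, 6.28, 6.34, 6.52 and 8.25 on WT 8 to WT 12, 6.64, 5.59 and 6.29 on HET 5 to HET 7, and 6.23, 6.13, 6.66 and 6.69 on KO 1 to KO 4. WT 12 was high and all other arrays lay at or below 6.69. On WT 12 the mean of 9 measured T and NK cell markers was 0.32 relative to WT, against -0.13 to -0.05 on the other WT arrays, and Cd3e read 6.51 and Cd3g 5.87 there, their highest. The part of these cells in the Cd52 reading was not tested. Of the 19 listed T and NK cell genes, Cd4 and Cd8a were among those not detected on 3 arrays, and 0 of the 5 B cell genes with a probe were measured.

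**Figure D4:**
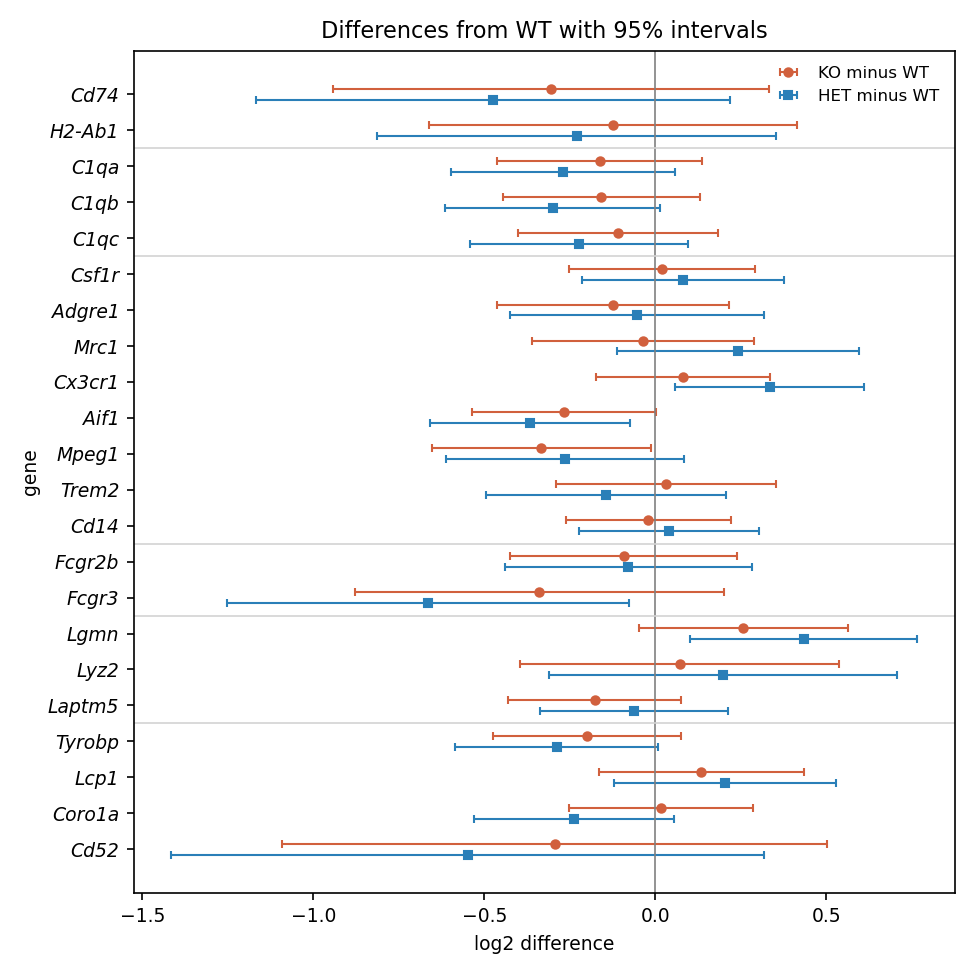
Log2 difference of each measured gene from WT, KO in orange and HET in blue, with 95% intervals from the limma fit, genes in order of role. Most intervals cover 0. Those that do not are Mpeg1 in KO and Cx3cr1, Aif1, Fcgr3 and Lgmn in HET, none of which passed adjustment over all genes.

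Over the 22 measured members, 15 read lower and 7 higher in KO than in WT, with a median of -0.12, while 49.5 percent of all genes read lower, with a median of 0.00. In HET against WT, 15 were lower and 7 higher, with a median of -0.18 against -0.01 for all genes. Both comparisons share the WT arrays. In KO the median was -0.21 for MHC class II, -0.16 for C1q, -0.22 for the Fc receptors, 0.07 for lysosomal effectors and -0.09 for pan-leukocyte genes. In HET the same medians were -0.35, -0.27, -0.37, 0.20 and -0.26. Without WT 12, HET 6 and HET 7 the HET medians became 0.00 for the members and 0.07 for the pan-leukocyte genes. In KO the sign of the median turned in 3 of 23 alternative settings for the pan-leukocyte genes and in 4 for the lysosomal effectors. KO against HET had 11 members higher and 11 lower in KO, with a median of 0.04, and the smallest adjusted p of a member was 0.66 (limma). These medians are over members that passed the detection filter and describe these arrays.

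Single arrays were often the extremes for many members at once. HET 6 was the lowest of the 12 arrays for 8 members, among them both MHC class II and all 3 C1q genes, and the highest for 4, Mrc1, Cx3cr1, Lgmn and Lcp1. On that array the mean of the germ cell markers was -0.59 and that of 5 erythroid markers -0.80 relative to WT, and their part was not tested. WT 11 was the highest array for 9 members and lay above the members' 12-array medians for 21 of 22, and KO 4 did so for 19. The same counts were not made over all genes. HET 6 also had the widest spread of the arrays over all genes (SD 0.44), so its extremes need not be particular to these members.

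The MHC class II genes averaged higher on the arrays with the upper column numbers. In WT the sets overlapped: Cd74 read 6.90 on WT 10 of the upper set and 7.41 on WT 8 of the lower. H2-Ab1 read 6.21 and 6.63 on the same arrays. With genotype in the limma fit, a comparison chosen after the data were seen, Cd74 was 0.61 higher (SE 0.20) on arrays with the upper numbers and H2-Ab1 0.45 higher (SE 0.19). These stood at percentiles 99.3 and 98.7 of all genes, but neither passed adjustment (unadjusted p = 0.011 and 0.031, adjusted p = 0.6 and 0.66). The perforin-2 gene Mpeg1 was 0.38 higher (SE 0.08, unadjusted p = 0.00044, adjusted p = 0.56). Its 6 upper arrays began at 6.63, just above the highest lower array at 6.61, a separation that 0.515 percent of all genes showed. C1qa, C1qb and C1qc were 0.08, 0.13 and 0.13 higher. In all, 19 of the 22 members were higher on the upper arrays, with a median of 0.13, against 5208 of 11076 genes with a median of -0.01. At an unadjusted p under 0.05, 7.15 percent of all genes passed in this comparison, and 0.00903 percent passed adjustment.

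Within the column numbers the genotype differences of MHC class II did not keep their sign. Its median was -0.44 in KO on the lower arrays (2 against 2) and 0.05 on the upper (2 against 3), and -0.57 and 0.23 in HET, where the upper set held 1 HET array against 3 WT. The C1q median stayed below WT, at -0.03 and -0.22 in KO and -0.30 and -0.20 in HET. Its genes did not all do so. In KO on the lower arrays C1qc differed by 0.04, C1qa by -0.03 and C1qb by -0.13. The tissue macrophage median was 0.07 and -0.08 in KO and 0.23 and -0.09 in HET. The part of the column numbers in the genotype differences was not tested further.

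**Figure D5:**
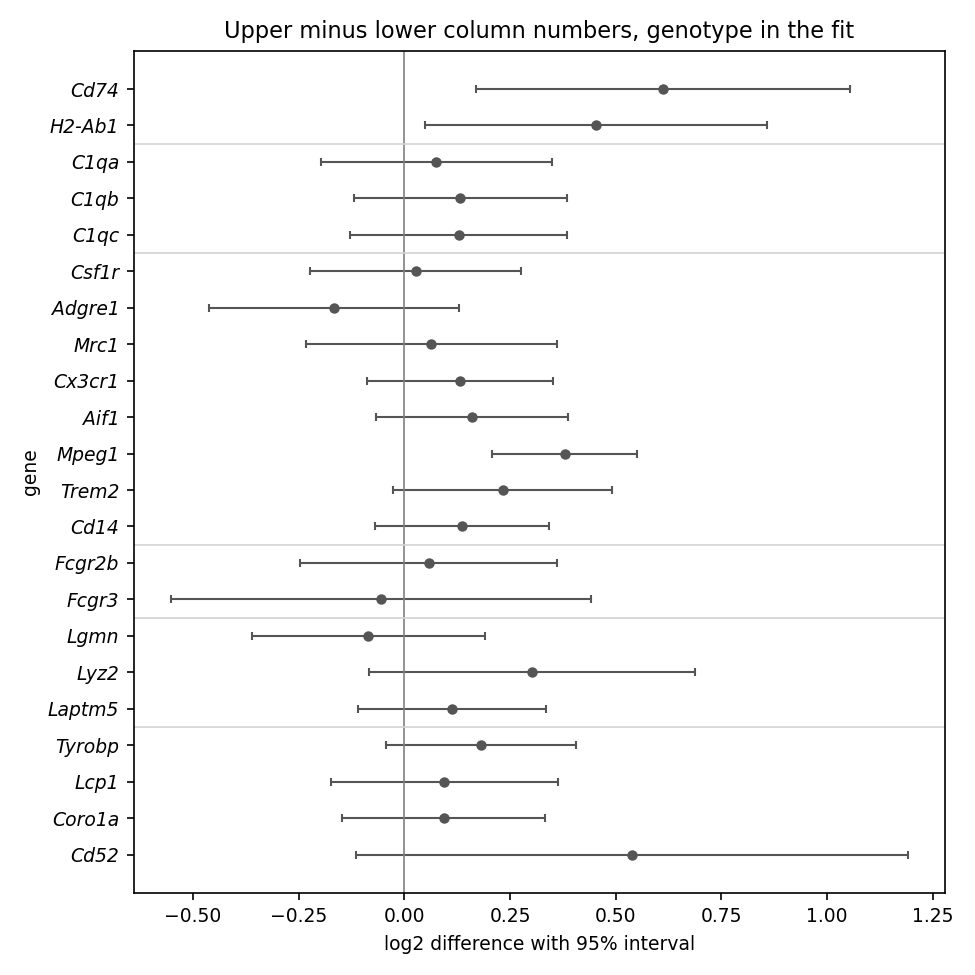
Log2 difference between arrays with the upper and the lower column numbers for each measured gene, with genotype in the limma fit and 95% intervals, genes in order of role. Cd74, H2-Ab1 and Mpeg1 are the genes whose intervals lie above 0, at 0.61, 0.45 and 0.38.

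Other genes of the same pathways gave 0 called genes in limma's test in each comparison, as did all 11076 genes. That count is therefore no result about these lists. Of all genes, 49.5 percent read lower in KO than in WT and 52.3 percent in HET than in WT. Of 19 other genes of MHC class II loading and control, 11 were measured, 6 higher and 5 lower in KO (median 0.02) and 4 higher and 7 lower in HET (median -0.07), and 8 were not, among them Ciita, the master activator of MHC class II. All 10 MHC class I genes were measured, with 3 higher and 7 lower in each mutant group (medians -0.12 and -0.10). Of 18 further complement genes 9 were measured, 4 higher and 5 lower in KO and 3 higher and 6 lower in HET. In the Csf1 axis 8 of 17 were measured, 2 higher and 6 lower in KO and 4 higher and 4 lower in HET, and neither ligand of Csf1r, Csf1 or Il34, was detected on 3 arrays. Efferocytosis and scavenging genes were split, 6 higher and 7 lower in KO and 7 higher and 6 lower in HET. Of 25 cytokines and chemokines 10 were measured, 3 higher and 7 lower in KO and 2 higher and 8 lower in HET, and Il1b, Tnf, Il6, Il10 and Ccl2 were not. Among markers of other leukocytes, 3 of 11 neutrophil, 2 of 7 mast cell, 2 of 7 dendritic cell and 3 of 8 monocyte genes were measured, and Itgax, S100a8 and Cpa3 were not.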

How the data were processed

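Total RNA of 12 whole testes was hybridised to Illumina MouseWG-6 v2 BeadChips, per the labels' protocols. Per the file headers, the deposited unnormalized table holds each probe's mean bead intensity (linear) and its detection p-value. The sources used here do not name the scanner software. The authors' processed intensity values, a quantile normalization of the same intensities, were an alternative. No column belonged to another series (0 columns).

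Intensities were background-corrected with normexp from the detection p-values (offset 16), quantile normalized and taken to log2 from the deposited values (neqc, limma 3.58.1, R 4.3.3). Probes needed a detection p under 0.05 on 3 or more arrays (20170 of 45281 passed), and each gene took its brightest kept probe by mean. Probes were named from the platform annotation, where 34885 had 1 symbol, 18 several and 10378 none. 1 limma fit over all 12 arrays and 11076 genes gave 3 contrasts and an F-test, with Benjamini-Hochberg adjustment over all genes. The code was tested on simulated data. The number of arrays limits the precision.

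The members, lists and tests were chosen with earlier results of these data known. Named members were all MHC class II and C1q genes, Csf1r, Adgre1, Cd68, Mrc1, Cd163 and Ptprc, and the 2 members of each role with the smallest F-test p. Tissue markers and some undetected genes of other lists are named by detection only, and Fcer1g, Cd3e and Cd3g were chosen after their values were seen. Alternatives were an offset of 50, quantile normalization without background correction, median scaling, the processed values, a stricter filter or none, averaging each gene's probes, fitting the compared groups alone, array weights, the column numbers as a block, leaving out WT 12, HET 6 and HET 7 together, and leaving out each array. Promoters were taken from the RefSeq table of GRCm38.p6.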

Additional observations from a re-analysis of the deposited data

Results flagged for a closer look

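In groups of 4 or 5 arrays, a value is listed here when its gap to the nearest other array takes up most of the group's range, which chance alone gives in about 1 in 20 groups. Of 58 groups, 5 met this. Mrc1 read 9.59 on WT 8, below the next WT array at 9.92. Cd52 read 8.25 on WT 12, above the next at 6.52. Laptm5 read 10.02 on KO 4, above the next KO array at 9.68, and the mean of the tissue macrophage genes relative to WT was 0.052 on the same array, above the next at -0.11. Tyrobp read 6.13 on KO 3, below the next at 6.32. The 3 HET arrays are too few for this comparison.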

How the results depend on the processing

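Under every alternative run, 0 members passed the adjusted threshold in each of the 3 genotype comparisons, so the sign changes below concern differences that passed it in no setting. Among all genes, calls appeared in 2 settings. Without WT 12, HET 6 and HET 7 there were 2 in KO against WT, and without HET 5 there were 173 in HET against WT and 62 in KO against HET. The medians of MHC class II and C1q kept their sign against WT in all 23 alternatives, as did the members' median in KO. The tissue macrophage median in HET turned in 5 of them, with arrays scaled to the same median, a stricter filter, array weights, without WT 12 and without HET 7. In KO the pan-leukocyte median turned in 3, without a filter, without WT 12 and without WT 12, HET 6 and HET 7, and the lysosomal median in 4, without a filter, with array weights, without WT 9 and without KO 4. With arrays scaled to the same median, Csf1r in KO against WT was -0.0081. Without a filter on dim probes, the median of pan-leukocyte and monocyte genes in HET against WT was -0.011. With the mean of a gene's probes, Csf1r and Fcgr2b were -0.080 and 0.0095 in KO against WT, Coro1a 0.0050 in HET against WT, and Aif1 and Fcgr2b -0.0036 and 0.053 in KO against HET. With array weights, Csf1r, Cx3cr1 and Coro1a were -0.057, -0.00043 and -0.045 in KO against WT, H2-Ab1, C1qc, Fcgr2b and Tyrobp -0.066, -0.0028, 0.020 and -0.015 in KO against HET, and C1qa -0.024 between upper and lower column numbers. Without WT 12, HET 6 and HET 7, the HET against WT median was 0.0031 for the members, 0.036 for Fc receptors and 0.065 for pan-leukocyte and monocyte genes, and Adgre1, Mrc1, Fcgr3, Fcgr2b, Laptm5 and Coro1a were 0.18, -0.16, 0.072, 0.00057, 0.051 and 0.042. In KO against HET the Fc receptor median was then -0.24, and C1qb, C1qc, Mrc1, Aif1, Fcgr3, Tyrobp and Coro1a were -0.088, -0.077, 0.14, -0.030, -0.41, -0.038 and -0.0072. With each array left out in turn, the lysosomal and phagocyte median in KO against WT ran from -0.18 to 0.21, the lowest without KO 4. The same comparison ran from -0.24 to 0.040 for H2-Ab1, -0.035 to 0.13 for Csf1r, -0.11 to 0.016 for Mrc1, -0.25 to 0.0035 for Fcgr2b and -0.037 to 0.097 for Coro1a. HET against WT ran from -0.53 to 0.11 for H2-Ab1, -0.014 to 0.17 for Csf1r, -0.13 to 0.093 for Adgre1, -0.21 to 0.079 for Fcgr2b and -0.13 to 0.0073 for Laptm5. KO against HET ran from -0.087 to 0.52 for Cd74, -0.23 to 0.41 for H2-Ab1, -0.049 to 0.21 for C1qa, -0.043 to 0.26 for C1qb, -0.040 to 0.21 for C1qc, -0.15 to 0.048 for Csf1r, -0.22 to 0.041 for Adgre1, -0.058 to 0.19 for Aif1, -0.057 to 0.69 for Fcgr3, -0.17 to 0.12 for Fcgr2b, -0.36 to 0.052 for Lgmn and -0.074 to 0.19 for Tyrobp. The causes were not tested. No paired analysis was possible because the groups share no replicate number. The 3 HET arrays and the 12 genes below detection limit what these data can show.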
